A study of Mus musculus with 16 samples.

Results

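The levels of 10 Wnt pathway genes were followed across adipose progenitors that had or had not been given a beta-adrenergic agonist. The genes were 4 ligands (Wnt5a, Wnt5b, Wnt10b and Wnt11), 5 secreted inhibitors (Dkk2, Dkk3, Sfrp1, Sfrp2 and Sfrp4) and Axin2. They were taken by symbol from a table of 27179 gene entries, and all 10 were found. RNA was sequenced from PDGFRb+ cells of mouse inguinal fat that had been sorted by flow cytometry into DPP4_pos and DPP4_neg adipose progenitors (APCs). The 4 groups were DPP4_pos APCs given isoproterenol, DPP4_pos APCs given vehicle, DPP4_neg APCs given isoproterenol and DPP4_neg APCs given vehicle, with 4 libraries in each. Every animal was of the C57BL/6 strain, and every culture had grown in medium with 10% FBS and antibiotics before treatment. Isoproterenol, a synthetic agonist of beta-adrenergic receptors, was given for 4 h at a dose that the labels state as 10 mM, the vehicle was PBS, and 500 ng of total RNA entered each library. The labels give neither the age or sex of the mice nor the origin of the replicates, so the p-values measure spread among libraries that may be technical only.

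Wnt ligands are lipid-modified secreted proteins that bind Frizzled receptors. In the canonical branch, binding of Frizzled together with the co-receptors Lrp5 or Lrp6 stabilises beta-catenin, which acts with TCF/LEF factors on target genes such as Axin2, and this branch is known to hold preadipocytes back from differentiation. Wnt5a, Wnt5b and Wnt11 are known mainly for beta-catenin-independent signalling, whereas Wnt10b is the canonical ligand best known for restraining adipogenesis. Sfrp proteins bind Wnt ligands outside the cell, and Dkk2 binds the Lrp co-receptors.

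The promoters of 4 starts are shown first, because they belong to the ligands that rose and to the inhibitor that fell furthest in DPP4_neg APCs after isoproterenol. Each is the 250 bases before an annotated start, printed 5′ to 3′ along the gene's strand, from RefSeq on GRCm38.p6. Capitals mark TGACG, the core of the cAMP response element, or CTTTGAT, a TCF/LEF site, on either strand (as CGTCA or ATCAAAG on the other). The Wnt11 starts lie at chr7:98834862-98835111 (+) for start A and chr7:98838595-98838844 (+) for start B, the Wnt5b start nearest the end of the gene at chr6:119449387-119449636 (-), and Dkk2 at chr3:132085042-132085291 (+).
Wnt11 start A: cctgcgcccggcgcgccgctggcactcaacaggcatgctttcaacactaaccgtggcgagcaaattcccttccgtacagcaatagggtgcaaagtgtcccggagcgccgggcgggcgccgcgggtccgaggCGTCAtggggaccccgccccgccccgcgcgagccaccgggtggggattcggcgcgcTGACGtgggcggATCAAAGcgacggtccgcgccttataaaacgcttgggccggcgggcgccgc
Wnt11 start B: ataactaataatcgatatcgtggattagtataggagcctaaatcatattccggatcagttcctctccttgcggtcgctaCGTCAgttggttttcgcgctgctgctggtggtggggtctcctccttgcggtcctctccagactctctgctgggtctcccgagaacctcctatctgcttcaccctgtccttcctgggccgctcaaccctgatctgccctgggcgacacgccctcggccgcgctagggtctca
Wnt5b: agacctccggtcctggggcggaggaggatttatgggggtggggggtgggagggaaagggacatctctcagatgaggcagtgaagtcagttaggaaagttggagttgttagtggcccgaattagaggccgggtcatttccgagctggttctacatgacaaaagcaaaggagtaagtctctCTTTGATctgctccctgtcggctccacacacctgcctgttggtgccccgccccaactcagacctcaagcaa
Dkk2: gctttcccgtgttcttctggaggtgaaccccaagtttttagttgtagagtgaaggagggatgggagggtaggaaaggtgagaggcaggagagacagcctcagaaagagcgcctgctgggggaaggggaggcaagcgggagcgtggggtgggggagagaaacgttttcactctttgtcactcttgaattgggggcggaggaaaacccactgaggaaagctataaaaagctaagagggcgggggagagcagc
The Wnt11 start A window held TGACG at -119 and -63 and CTTTGAT at -51, counted from the start, and start B held TGACG at -171. The Wnt5b window held CTTTGAT at -71, and the Dkk2 window held neither. Of 32851 RefSeq promoter windows of this length, 17.8% held TGACG, 3.90% held it at 2 or more places, and 3.21% held CTTTGAT. The full element TGACGTCA, which contains TGACG, was in 1.55% of windows and in none of the 9 windows matched. Promoters were matched for 6 of the 10 genes, with 9 starts in all. The other starts, of Sfrp2, Axin2, Wnt10b and the remaining 2 of Wnt5b, held neither motif, apart from TGACG at -6 in Wnt10b. Of the Wnt5b starts, only the printed start thus held either motif, and which starts the cells used was not tested. These matches describe letters only.

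Levels are given as normalized counts, the reads of a gene divided by a size factor of the library. Reads in genes per library numbered 9823799 to 16563940 in DPP4_pos isoproterenol, 17189166 to 20425332 in DPP4_pos vehicle, 10191846 to 22121496 in DPP4_neg isoproterenol and 16479650 to 28627223 in DPP4_neg vehicle. Dpp4 followed the sort, with medians of 2230 and 3066 normalized counts in DPP4_pos isoproterenol and vehicle libraries, against 9.26 and 22.2 in DPP4_neg isoproterenol and vehicle libraries. Pdgfrb, the sorted receptor, was present in every library, with medians of 2043 and 7613 in DPP4_pos isoproterenol and vehicle and 8973 and 11270 in DPP4_neg isoproterenol and vehicle libraries. Changes were tested with limma on log2(normalized count + 1) across 14005 genes, those with at least 10 normalized counts in at least 4 libraries, and an adjusted p under 0.05 was called. Such log2 changes understate those of low genes. Wnt10b did not pass this filter. The other 9 genes each passed it in every group, with 23 to 45779 reads per library.

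**Figure D1:**
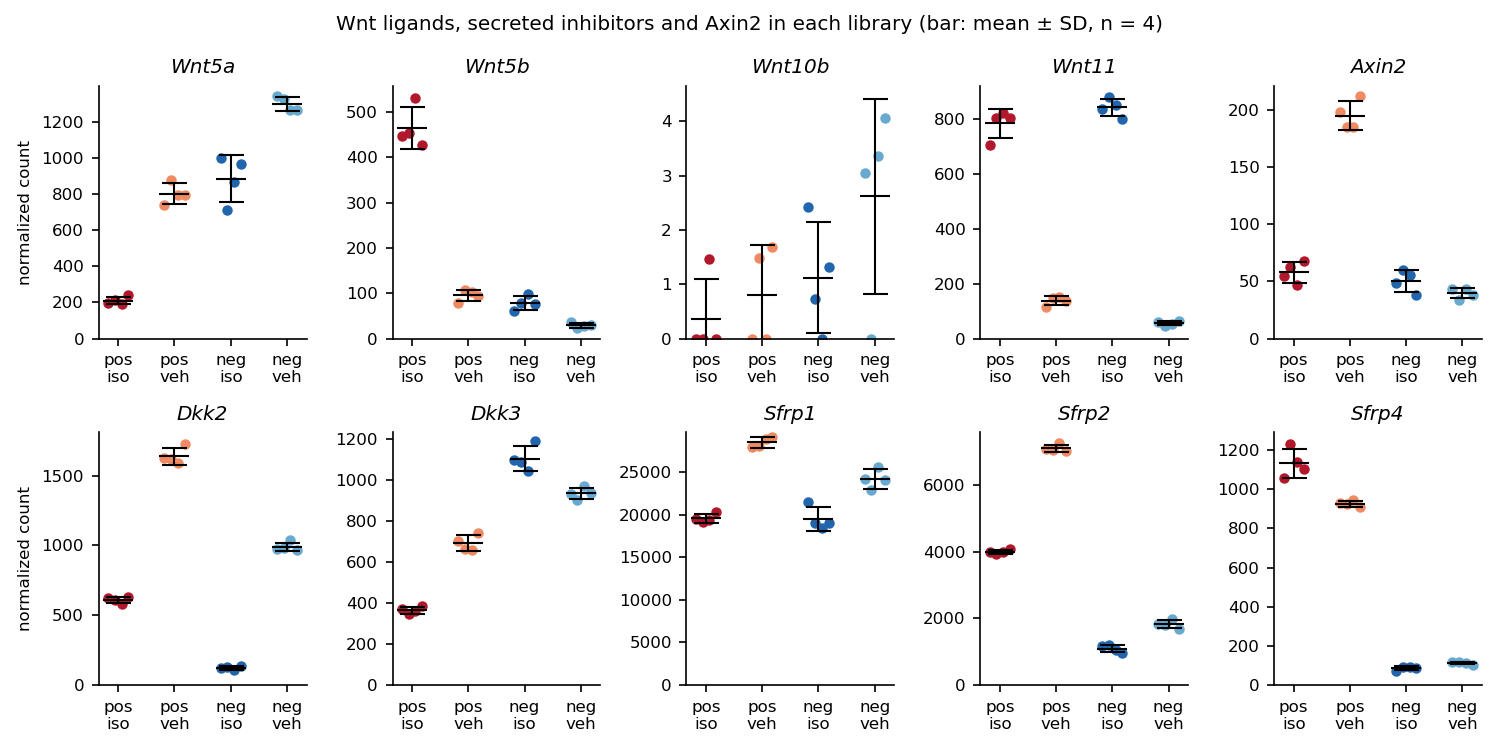
Normalized counts of each gene (vertical axes) in every library of the 4 groups (horizontal axes), with bars for the mean ± SD of 4 libraries. Wnt5b and Wnt11 stand higher in isoproterenol than in vehicle libraries of both populations, Wnt5a and Dkk2 lower, and Axin2 is high in DPP4_pos vehicle libraries, at 185 to 212.

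Isoproterenol moved the ligands in opposite directions. Wnt11 and Wnt5b rose in both populations, while Wnt5a fell in both. The fall of Wnt5a was larger in DPP4_pos APCs, and the rise of Wnt11 was larger in DPP4_neg APCs. In DPP4_pos APCs all 9 tested genes were called, 3 higher and 6 lower, in a comparison that called 82.7% of all genes (39.4% higher and 43.3% lower). In DPP4_neg APCs 8 of the 9 were called, 3 higher and 5 lower, where 65.7% of all genes were called (32.1% higher and 33.6% lower). The isoproterenol and vehicle groups did not overlap for 9 of the 9 in DPP4_pos APCs, against 77.8% of all genes, and for 8 of the 9 in DPP4_neg APCs, against 58.9%. Calls were common throughout, so these counts of 9 genes by themselves say little about the set. The median log2 change of the 9 genes was -0.83 in DPP4_pos and -0.31 in DPP4_neg APCs, against -0.05 and -0.02 over all genes in the same comparisons. The genes were chosen with earlier results of these data known, so their medians, here and below, describe these genes only. In bulk libraries fewer cells of a type and less RNA per cell cannot be told apart.

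Wnt11 (chr7:98835084-98854747 on GRCm38) had 706, 807, 824 and 806 normalized counts in DPP4_pos isoproterenol libraries, against 115, 149, 153 and 138 in DPP4_pos vehicle libraries. In DPP4_neg APCs it had 837, 880, 853 and 803 with isoproterenol, against 59.5, 45.8, 54.3 and 65.0 with vehicle. Every isoproterenol library was far above every vehicle library, and the isoproterenol groups overlapped while the vehicle groups did not. The log2 change was 2.50 ± 0.10 (SE; limma adjusted p = 3.51e-16) in DPP4_pos APCs and 3.90 ± 0.10 (limma adjusted p = 3.36e-19) in DPP4_neg APCs, a 5.66-fold and a 14.9-fold rise. The responses differed by -1.40 ± 0.14 (DPP4_pos minus DPP4_neg, limma adjusted p = 1.25e-08). With isoproterenol the difference between DPP4_pos and DPP4_neg APCs did not pass the test, at -0.10 log2 with a 95% interval of -0.30 to 0.10 (limma adjusted p = 0.333). That difference passed under edgeR (-0.15, adjusted p = 0.0446) and under scaling to total counts (-0.30, limma adjusted p = 0.00855). The promoter of Wnt11 start A was the only printed window with both motifs.

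Wnt5b (chr6:119432531-119544824, minus strand), the close paralogue of Wnt5a, had 447, 453, 532 and 427 normalized counts in DPP4_pos isoproterenol libraries, against 78.9, 106, 103 and 93.8 in DPP4_pos vehicle libraries. DPP4_neg libraries had 61.5, 79.3, 97.8 and 76.1 with isoproterenol, against 36.6, 22.4, 28.6 and 30.4 with vehicle. DPP4_pos isoproterenol libraries were highest and DPP4_neg vehicle libraries lowest, and the DPP4_pos vehicle and DPP4_neg isoproterenol libraries overlapped between them. The log2 change with isoproterenol was 2.28 ± 0.15 in DPP4_pos APCs (limma adjusted p = 3.05e-12) and 1.39 ± 0.15 in DPP4_neg APCs (limma adjusted p = 2.80e-08). The rise was larger in DPP4_pos APCs by 0.89 ± 0.21 (limma adjusted p = 0.000792).

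Wnt5a (chr14:28504543-28527448), a ligand that acts through Ror receptors and Frizzleds, ran the other way. It had 199, 211, 193 and 239 normalized counts in DPP4_pos isoproterenol libraries, against 738, 878, 795 and 796 in DPP4_pos vehicle libraries. In DPP4_neg APCs it had 999, 710, 866 and 966 with isoproterenol, against 1341, 1324, 1266 and 1266 with vehicle. DPP4_pos isoproterenol libraries were the lowest by a wide gap, DPP4_pos vehicle and DPP4_neg isoproterenol libraries overlapped, and DPP4_neg vehicle libraries were highest. Wnt5a fell by 1.93 ± 0.08 on the log2 scale in DPP4_pos APCs (limma adjusted p = 2.96e-15) and by 0.56 ± 0.08 in DPP4_neg APCs (limma adjusted p = 4.13e-06). The difference between these responses was -1.36 ± 0.12 (limma adjusted p = 2.08e-09). Across the 16 libraries Wnt5a and Wnt5b had a Pearson r of -0.967, which describes 4 groups rather than independent points.

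Wnt10b, the canonical ligand named above, was close to the limit of detection. Its reads over the 4 libraries of a group came to 1 in DPP4_pos isoproterenol, 4 in DPP4_pos vehicle, 5 in DPP4_neg isoproterenol and 16 in DPP4_neg vehicle. By library these were 0, 0, 1 and 0 in DPP4_pos isoproterenol, 0, 2, 0 and 2 in DPP4_pos vehicle, 3, 1, 0 and 1 in DPP4_neg isoproterenol and 4, 0, 6 and 6 in DPP4_neg vehicle. Each group had at least 1 library without a read, and no change could be resolved at this depth.

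Levels per kb of merged exon, which allow ligands to be compared with each other, were summed over the 19 Wnt ligands in the table, 9 of which passed the filter. The sum was 603 ± 19.0 in DPP4_pos isoproterenol and 628 ± 13.8 in DPP4_pos vehicle libraries, and 468 ± 7.04 in DPP4_neg isoproterenol and 291 ± 9.37 in DPP4_neg vehicle libraries (normalized counts per kb, mean ± SD, n = 4). The make-up of the sum differed more than its size in DPP4_pos APCs. Wnt5a held 4.46% of it in DPP4_pos isoproterenol and 16.3% in DPP4_pos vehicle libraries, and 24.2% in DPP4_neg isoproterenol and 57.1% in DPP4_neg vehicle libraries. Wnt11 held 31.5% in DPP4_pos isoproterenol and 5.32% in DPP4_pos vehicle, and 43.6% in DPP4_neg isoproterenol and 4.65% in DPP4_neg vehicle libraries. Wnt5b held 29.0% in DPP4_pos isoproterenol and 5.71% in DPP4_pos vehicle, and 6.34% in DPP4_neg isoproterenol and 3.81% in DPP4_neg vehicle libraries. In both populations the Wnt5a share was lower, and the Wnt11 and Wnt5b shares higher, with isoproterenol. Wnt16, a ligand outside the 10 genes, was the most abundant in DPP4_pos vehicle libraries at 59.0%, with 15.7% in DPP4_pos isoproterenol libraries. Wnt2 held 15.9% in DPP4_pos isoproterenol and 7.81% in DPP4_pos vehicle libraries. In DPP4_neg libraries Wnt16 held 3.80% with isoproterenol and 12.7% with vehicle, and Wnt2 held 7.98% and 8.10%. The Wnt16 share was thus lower with isoproterenol in both populations, while the Wnt2 share was higher in DPP4_pos APCs and overlapped between treatments in DPP4_neg APCs. As a ratio within a library, Wnt11 per kb was 6.39 to 8.08 times Wnt5a in DPP4_pos isoproterenol and 0.294 to 0.364 times in DPP4_pos vehicle libraries. The same ratio was 1.57 to 2.34 in DPP4_neg isoproterenol and 0.0654 to 0.0970 in DPP4_neg vehicle libraries. Per kb, Wnt11 stood above Wnt5a in every isoproterenol library and below it in every vehicle library. Without division by exon length, Wnt11 had 837, 880, 853 and 803 normalized counts in DPP4_neg isoproterenol libraries, against 999, 710, 866 and 966 for Wnt5a. The order in that group thus depended on the exon lengths used. In DPP4_pos isoproterenol libraries the shares of Wnt11 (28.8% to 33.3%) and Wnt5b (26.5% to 31.9%) overlapped.

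**Figure D2:**
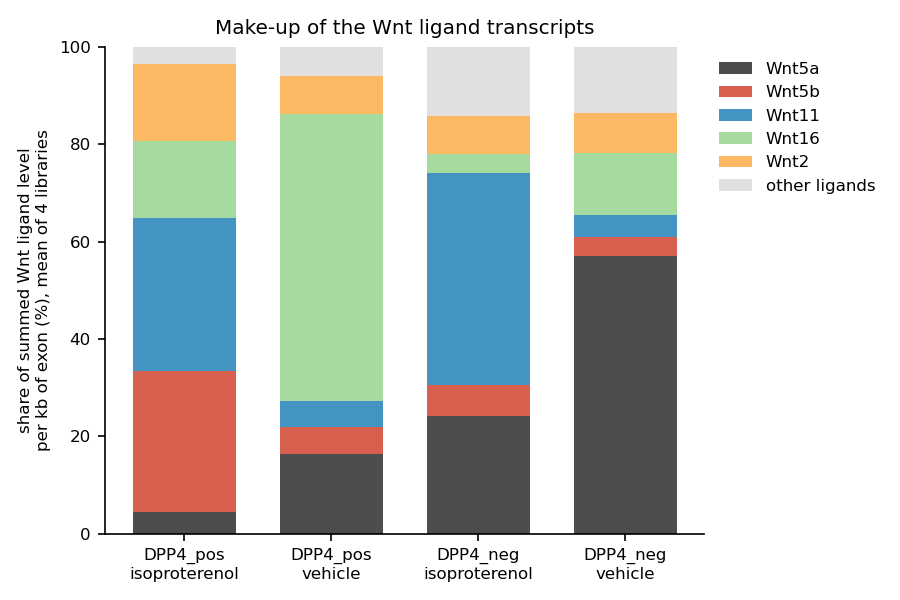
Share of each Wnt ligand in the summed ligand level per kb of exon (vertical axis, %, mean of 4 libraries) in the 4 groups (horizontal axis). Wnt5a holds 57.1% in DPP4_neg vehicle libraries and Wnt16 holds 59.0% in DPP4_pos vehicle libraries, while Wnt11 has the largest mean share in both isoproterenol groups.

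The secreted inhibitors mostly fell with isoproterenol. Dkk2, Sfrp1 and Sfrp2 fell in both populations, and Dkk3 fell in DPP4_pos and rose in DPP4_neg APCs. Sfrp4 rose in DPP4_pos and fell in DPP4_neg APCs, but its rise did not pass under quantile or total-count scaling. Sfrp1 was by far the most abundant in every group, so it made up most of the summed inhibitor level per kb. Sfrp2 held the next largest mean share of that sum, but in DPP4_neg isoproterenol libraries this was 9.50%, against 6.18% for Dkk3. That sum was 6876 ± 141 in DPP4_pos isoproterenol and 10680 ± 157 in DPP4_pos vehicle libraries, and 5342 ± 336 in DPP4_neg isoproterenol and 6949 ± 320 in DPP4_neg vehicle libraries (mean ± SD, n = 4). Sfrp1 made up 65.0% of it in DPP4_pos isoproterenol and 60.9% in DPP4_pos vehicle libraries, and 83.3% in DPP4_neg isoproterenol and 79.6% in DPP4_neg vehicle libraries.

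Dkk2 (chr3:132085266-132180304), a Dickkopf protein that binds Lrp5 and Lrp6, had 621, 608, 582 and 628 normalized counts in DPP4_pos isoproterenol libraries, against 1624, 1616, 1589 and 1729 in DPP4_pos vehicle libraries. Its level in DPP4_neg APCs was 119, 128, 104 and 137 with isoproterenol, against 974, 981, 1036 and 966 with vehicle. The 4 groups did not overlap, with DPP4_pos vehicle libraries highest and DPP4_neg isoproterenol libraries lowest. Dkk2 fell by 1.43 ± 0.06 on the log2 scale in DPP4_pos APCs (limma adjusted p = 3.10e-15) and by 3.02 ± 0.06 in DPP4_neg APCs (limma adjusted p = 1.34e-20), an 8.10-fold fall in DPP4_neg APCs. The fall was smaller in DPP4_pos APCs by 1.59 ± 0.09 (limma adjusted p = 1.38e-12).

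Dkk3 (chr7:112116019-112159482, minus strand), a divergent Dickkopf family member, had 373, 345, 359 and 385 normalized counts in DPP4_pos isoproterenol libraries, against 705, 667, 662 and 742 in DPP4_pos vehicle libraries. In DPP4_neg APCs it had 1099, 1090, 1044 and 1192 with isoproterenol, against 933, 904, 972 and 938 with vehicle. No group overlapped another, and the order of the treatments was opposite in the 2 populations. The log2 change was -0.92 ± 0.05 in DPP4_pos APCs (limma adjusted p = 1.70e-13) and 0.24 ± 0.05 in DPP4_neg APCs (limma adjusted p = 0.000276). The responses differed by -1.16 ± 0.07 (limma adjusted p = 7.57e-12).

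Sfrp1 (chr8:23411383-23449632), a secreted Frizzled-related protein, ranged over 19116 to 20263 normalized counts in DPP4_pos isoproterenol and 27906 to 29078 in DPP4_pos vehicle libraries. In DPP4_neg libraries it ranged over 18422 to 21500 with isoproterenol and 22839 to 25638 with vehicle. The isoproterenol groups overlapped each other and lay below both vehicle groups. Sfrp1 fell by 0.54 ± 0.04 on the log2 scale in DPP4_pos APCs (limma adjusted p = 1.81e-10) and by 0.31 ± 0.04 in DPP4_neg APCs (limma adjusted p = 1.91e-06), and the responses differed by -0.23 ± 0.06 (limma adjusted p = 0.00316). The fall in DPP4_pos APCs was 0.90 and 0.81 under quantile and total-count scaling, and the difference of the responses was -0.57 and -0.49.

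Sfrp2 (chr3:83765750-83774314), of the same family, ranged over 3944 to 4089 normalized counts in DPP4_pos isoproterenol and 7009 to 7262 in DPP4_pos vehicle libraries, and over 958 to 1190 in DPP4_neg isoproterenol and 1679 to 1988 in DPP4_neg vehicle libraries. No group overlapped another, and both DPP4_pos groups were above both DPP4_neg groups. It fell by 0.83 ± 0.05 in DPP4_pos APCs (limma adjusted p = 3.71e-12) and by 0.74 ± 0.05 in DPP4_neg APCs (limma adjusted p = 5.91e-11). The difference of these responses did not pass the test, at -0.09 with a 95% interval of -0.24 to 0.07 (limma adjusted p = 0.330), but passed under quantile scaling (-0.49, limma adjusted p = 8.43e-06) and total-count scaling (-0.35, limma adjusted p = 0.000354). Under quantile scaling the fall in DPP4_pos APCs was 1.29.

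Sfrp4 (chr13:19623175-19632825) was the inhibitor that set the populations furthest apart. It had 1058, 1232, 1137 and 1101 normalized counts in DPP4_pos isoproterenol libraries, against 929, 922, 944 and 907 in DPP4_pos vehicle libraries. DPP4_neg libraries had 69.6, 94.0, 93.1 and 87.9 with isoproterenol, against 117, 118, 113 and 103 with vehicle. All DPP4_pos libraries were several-fold above all DPP4_neg libraries, and within each population the treatments did not overlap. The log2 change was 0.29 ± 0.08 in DPP4_pos APCs (limma adjusted p = 0.00223) and -0.39 ± 0.08 in DPP4_neg APCs (limma adjusted p = 0.000186), and the responses differed by 0.68 ± 0.11 (limma adjusted p = 2.07e-05). The rise in DPP4_pos APCs did not pass under quantile scaling (0.09, limma adjusted p = 0.259) or total-count scaling (0.01, limma adjusted p = 0.869). Under quantile scaling the change in DPP4_neg APCs was -0.20, and the difference of the responses was 0.30 under quantile and 0.42 under total-count scaling.

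**Figure D3:**
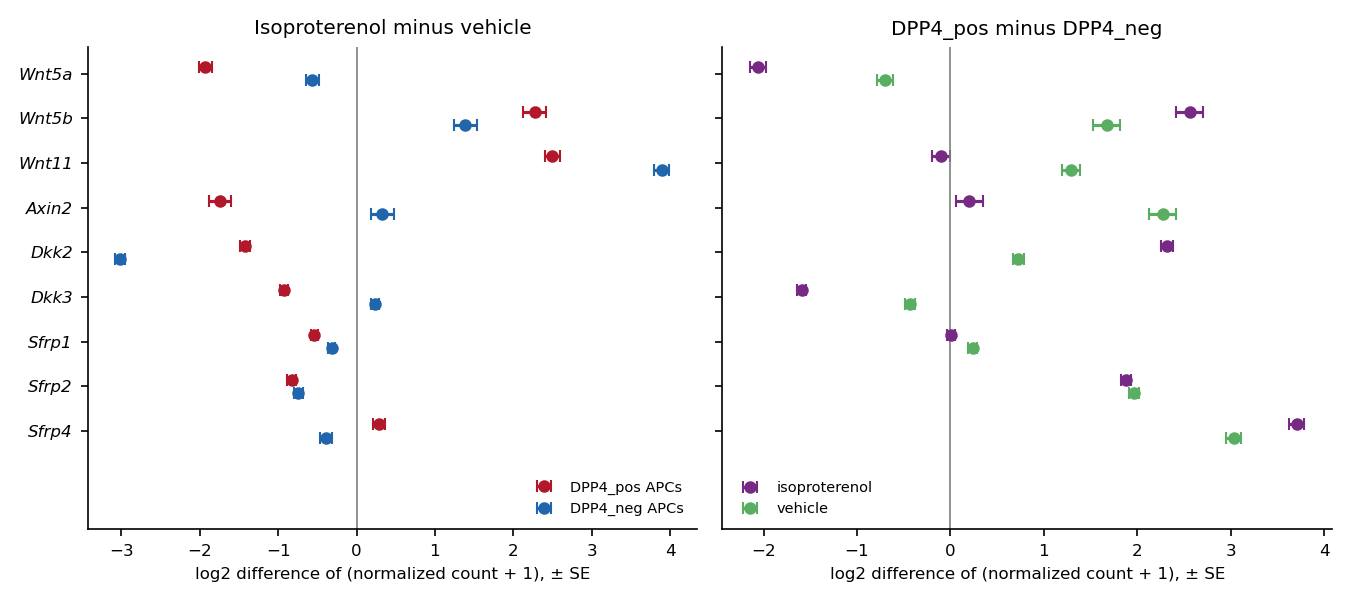
Log2 differences of (normalized count + 1) ± SE for the 9 tested genes (horizontal axes), with isoproterenol minus vehicle in each population and DPP4_pos minus DPP4_neg under each treatment. Axin2 falls by 1.74 in DPP4_pos APCs, and Dkk3 and Sfrp4 lie on opposite sides of 0 in the 2 populations.

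Axin2 (chr11:108917828-108950783) encodes a scaffold of the complex that degrades beta-catenin and is itself a widely used target of canonical signalling. It had 55.1, 62.7, 46.8 and 67.6 normalized counts in DPP4_pos isoproterenol libraries, against 198, 185, 185 and 212 in DPP4_pos vehicle libraries. DPP4_neg APCs had 48.6, 60.2, 55.2 and 38.1 with isoproterenol, against 43.5, 34.1, 43.1 and 37.9 with vehicle. The DPP4_pos vehicle libraries stood alone at the high end, and the DPP4_neg isoproterenol libraries overlapped both DPP4_pos isoproterenol and DPP4_neg vehicle libraries. Axin2 fell by 1.74 ± 0.14 on the log2 scale in DPP4_pos APCs, 3.35-fold (limma adjusted p = 2.68e-10). In DPP4_neg APCs the change of 0.33 ± 0.14 did not pass the test (limma adjusted p = 0.0509, with 0.00319 to 0.193 over the alternatives). It passed with a filter of 50 normalized counts (0.0487), a pseudocount of 5 (0.0496), quantile scaling (0.00319), edgeR (0.0273) and DESeq2 (0.0488). It also passed without each of DPP4_pos isoproterenol 3 or 4, DPP4_neg isoproterenol 4, and DPP4_neg vehicle 1 or 3, with a log2 change of 0.46 (limma adjusted p = 0.00753) without DPP4_neg isoproterenol 4. The responses of the populations differed by -2.07 ± 0.20 (limma adjusted p = 1.52e-08), the largest such difference of the 9 genes.

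Of the 9 genes, 8 had responses that differed between the populations, 3 higher and 5 lower in DPP4_pos APCs, where 62.6% of all genes were called (31.6% higher and 31.0% lower). The median over the 9 chosen genes was -0.23, against -0.02 over all genes. Both responses entered this difference, so it shares its libraries with the comparisons above. Scaling to total counts moved the median of all genes by -0.27 in DPP4_pos isoproterenol against DPP4_pos vehicle and by -0.26 in the difference of the responses. The share of called genes that were higher was then 33.0% in place of 47.6%, and 27.2% in place of 50.5%. Normalized counts summed over all genes were 18373884 to 18618379 in DPP4_pos isoproterenol and 15178960 to 15405397 in DPP4_pos vehicle libraries, and 16076668 to 16240972 in DPP4_neg isoproterenol and 15988699 to 16044903 in DPP4_neg vehicle libraries.

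In vehicle, DPP4_pos APCs had more RNA of 7 of the 9 genes than DPP4_neg APCs and less of Wnt5a and Dkk3. All 9 were called, in a comparison that called 66.6% of all genes (31.6% higher and 35.0% lower), and the groups of all 9 did not overlap, as was the case for 67.3% of all genes. The log2 difference was 3.03 ± 0.08 for Sfrp4 (limma adjusted p = 1.03e-18), an 8.17-fold excess in DPP4_pos APCs. Axin2 was higher by 2.27 ± 0.14 (limma adjusted p = 5.96e-12) and Sfrp2 by 1.96 ± 0.05 (limma adjusted p = 2.14e-18). The ligands Wnt5b and Wnt11 were higher by 1.67 ± 0.15 and 1.29 ± 0.10 (limma adjusted p = 1.34e-09 and 9.33e-11). Ligands, inhibitors and Axin2 were thus all among the genes higher in DPP4_pos APCs. Dkk2 was higher by 0.73 ± 0.06 (limma adjusted p = 9.06e-10) and Sfrp1 by 0.24 ± 0.04 (limma adjusted p = 6.66e-05). Wnt5a was lower, at -0.70 ± 0.08 (limma adjusted p = 1.97e-07), and so was Dkk3, at -0.43 ± 0.05 (limma adjusted p = 1.16e-07). The median over the 9 chosen genes was 1.29, against -0.01 over all genes.

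With isoproterenol, 6 of the 9 genes were called between the populations, 4 higher and 2 lower in DPP4_pos APCs, where 74.4% of all genes were called (37.4% higher and 37.0% lower). The groups did not overlap for the same number, 6 of the 9, against 63.9% of all genes. Sfrp4 was higher in DPP4_pos APCs by 3.71 ± 0.08, Wnt5b by 2.56 ± 0.15, Dkk2 by 2.32 ± 0.06 and Sfrp2 by 1.88 ± 0.05 on the log2 scale (limma adjusted p at most 7.38e-13). Wnt5a and Dkk3 were lower, at -2.06 ± 0.08 and -1.59 ± 0.05 (limma adjusted p = 1.89e-15 and 2.21e-17). Wnt11, Axin2 and Sfrp1, which were all higher in DPP4_pos APCs in vehicle, did not pass the test here. The difference for Axin2 was 0.20 with a 95% interval of -0.10 to 0.50 (limma adjusted p = 0.209), and it passed under quantile scaling (0.39, limma adjusted p = 0.0161). That for Sfrp1 was 0.01 with a 95% interval of -0.08 to 0.10 (limma adjusted p = 0.864), and its sign changed under 4 kinds of alternative. It passed the test as lower in DPP4_pos APCs under quantile scaling (-0.31, limma adjusted p = 1.91e-07) and total-count scaling (-0.19, limma adjusted p = 0.000544). The share of called genes that were higher was 50.3%, and 34.3% with total-count scaling.

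Summed markers of some other cell types differed between the populations, and the mural, adipocyte, skeletal muscle and Schwann sums differed between treatments too. The low mesothelial sum differed between treatments in DPP4_pos APCs only. The summed normalized count of 7 mural genes (Acta2, Myh11, Cnn1, Rgs5, Notch3, Kcnj8 and Abcc9) was 4957 to 5923 in DPP4_pos isoproterenol and 7640 to 8777 in DPP4_pos vehicle libraries. In DPP4_neg APCs that sum was 74663 to 81163 with isoproterenol and 107963 to 119177 with vehicle. All 7 passed the filter, and they did not all move the same way. With isoproterenol 3 were called higher and 4 lower in DPP4_pos APCs, and 1 higher and 4 lower in DPP4_neg APCs. Between DPP4_pos and DPP4_neg APCs 3 were higher and 4 lower with isoproterenol, and 1 higher and 4 lower in vehicle. The sum of 4 adipocyte genes (Adipoq, Plin1, Fabp4 and Lep, of which 3 passed the filter) was 3616 to 4295 in DPP4_pos isoproterenol and 10647 to 11992 in DPP4_pos vehicle libraries, and 11072 to 13258 in DPP4_neg isoproterenol and 28580 to 33023 in DPP4_neg vehicle libraries. Lep was at 0 in every isoproterenol library of either population. The sum of 6 endothelial genes was 1150 to 1271 in DPP4_pos isoproterenol and 1103 to 1157 in DPP4_pos vehicle, and 169 to 211 in DPP4_neg isoproterenol and 162 to 199 in DPP4_neg vehicle libraries. It overlapped between treatments in both populations. Of the 5 that passed the filter, 1 was called higher and 2 lower with isoproterenol in DPP4_pos APCs, and 2 higher and 2 lower in DPP4_neg APCs. Of 4 skeletal muscle genes 1 passed the filter. Their sum was 23.4 to 29.6 in DPP4_pos isoproterenol and 39.9 to 57.2 in DPP4_pos vehicle libraries. In DPP4_neg APCs it was 311 to 458 with isoproterenol and 689 to 922 with vehicle. Of 4 Schwann genes 2 passed the filter. Their sum was 15.7 to 27.9 and 64.5 to 84.0 in DPP4_pos isoproterenol and vehicle libraries, and 56.4 to 71.2 and 83.4 to 95.4 in DPP4_neg ones. The part of these cell types in the Wnt differences was not tested.

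The wider pathway was read through 93 further genes, of which 91 were in the table and 69 passed the filter. With isoproterenol 28 rose and 34 fell in DPP4_pos APCs, where 39.4% of all genes rose and 43.3% fell. In DPP4_neg APCs 23 rose and 29 fell, where 32.1% of all genes rose and 33.6% fell. Most genes of either kind were called, so the counts below are read against these shares, 82.7% called in DPP4_pos and 65.7% in DPP4_neg APCs. Their median log2 change was -0.21 in DPP4_pos and -0.01 in DPP4_neg APCs, against -0.05 and -0.02 over all genes. Both genes tested for ligand secretion fell in both populations, and Wls, the carrier of Wnt proteins to the cell surface, fell by 1.05 ± 0.03 in DPP4_pos APCs (limma adjusted p = 6.89e-19).

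Among 16 receptors and co-receptors 7 rose and 8 fell in DPP4_pos APCs, and 5 rose and 8 fell in DPP4_neg APCs, against 82.7% and 65.7% of all genes called in these comparisons. The Frizzled receptor Fzd4 averaged 715 ± 54.1 normalized counts in DPP4_pos isoproterenol and 3860 ± 132 in DPP4_pos vehicle libraries, and 827 ± 108 in DPP4_neg isoproterenol and 3523 ± 296 in DPP4_neg vehicle libraries (SD, n = 4 each). Fzd1 rose where Fzd4 fell, by 1.72 ± 0.05 in DPP4_pos and 1.75 ± 0.05 in DPP4_neg APCs (limma adjusted p = 8.30e-19 and 1.49e-18). Fzd5 fell by 3.12 ± 0.08 in DPP4_neg APCs (limma adjusted p = 1.01e-18), and the response in DPP4_pos APCs differed by 2.33 ± 0.12 (limma adjusted p = 2.52e-13). Of 6 tested R-spondins, which raise Wnt signalling, and their Lgr receptors, 5 fell in each population, where 43.3% of all genes fell in DPP4_pos and 33.6% in DPP4_neg APCs. Rspo2 averaged 6.45 ± 1.51 in DPP4_pos isoproterenol and 174 ± 16.7 in DPP4_pos vehicle libraries, and 24.4 ± 2.79 in DPP4_neg isoproterenol and 456 ± 51.7 in DPP4_neg vehicle libraries. Rspo1 instead rose by 1.39 ± 0.20 in DPP4_pos and 1.15 ± 0.20 in DPP4_neg APCs (limma adjusted p = 1.51e-06 and 3.17e-05).

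Of the other feedback and target genes of the pathway, 4 rose and 6 fell among 11 tested in DPP4_pos APCs, and 2 rose and 6 fell in DPP4_neg APCs, against 82.7% and 65.7% of all genes called. Nkd1 and Nkd2, inhibitors of Dishevelled induced by Wnt signalling, fell in both populations. Nkd1 fell by 2.56 ± 0.09 in DPP4_pos and 1.94 ± 0.09 in DPP4_neg APCs (limma adjusted p = 7.11e-17 and 2.46e-14), and Nkd2 by 2.26 ± 0.12 and 2.61 ± 0.12 (limma adjusted p = 6.69e-14 and 1.24e-14). Unlike Axin2, both genes were therefore lower with isoproterenol in DPP4_neg APCs too. Other feedback genes rose. Notum rose by 0.36 ± 0.15 in DPP4_pos and 1.26 ± 0.15 in DPP4_neg APCs (limma adjusted p = 0.0362 and 2.79e-07). Znrf3 rose by 1.28 ± 0.10 in DPP4_pos APCs (limma adjusted p = 1.19e-10), and its change of 0.04 in DPP4_neg APCs did not pass the test (limma adjusted p = 0.717). Wisp2, a secreted matricellular protein of mesenchymal adipose cells, fell in both populations. Its fall was 2.80 ± 0.04 in DPP4_pos and 0.70 ± 0.04 in DPP4_neg APCs (limma adjusted p = 4.09e-24 and 3.03e-13). Myc, a transcription factor that Wnt signalling can induce among many other signals, rose in both. Its rise was 1.84 ± 0.04 in DPP4_pos and 0.39 ± 0.04 in DPP4_neg APCs (limma adjusted p = 1.14e-19 and 9.52e-08). Tle1 and Tle2 are both corepressors of TCF/LEF factors. Tle1 rose by 1.74 ± 0.05 in DPP4_pos and 0.69 ± 0.05 in DPP4_neg APCs (limma adjusted p = 4.81e-18 and 1.45e-10). Tle2 fell by 1.96 ± 0.07 in DPP4_pos and 0.58 ± 0.07 in DPP4_neg APCs (limma adjusted p = 3.72e-17 and 1.07e-07).

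**Figure D4:**
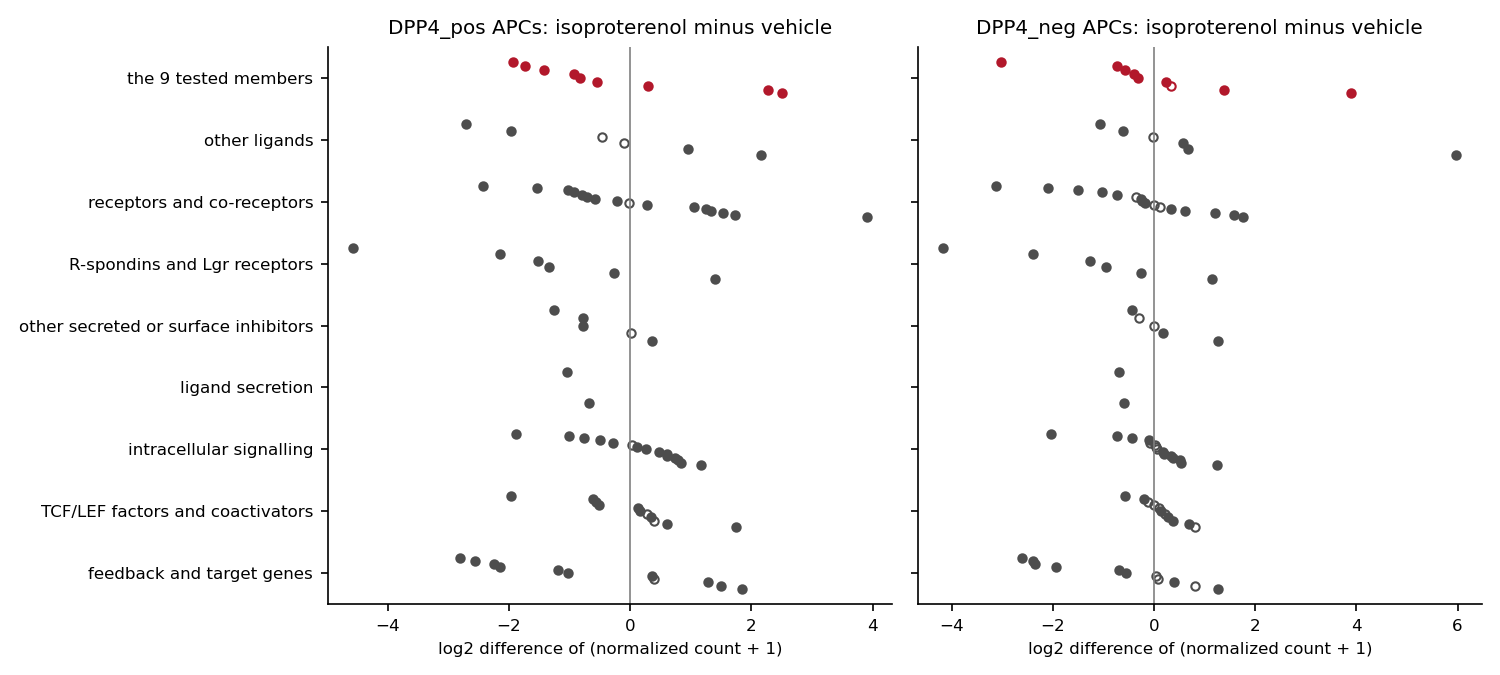
Log2 difference of (normalized count + 1), isoproterenol minus vehicle (horizontal axes), for the 9 tested genes and each group of further pathway genes (rows), 1 point per gene, in DPP4_pos and DPP4_neg APCs. In both populations 5 of 6 R-spondin and Lgr genes lie below 0, and receptors lie on both sides.

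Genes whose levels ran most like each Wnt gene were found by Pearson correlation over the 16 libraries, which share the same 4 groups. For Wnt5a these were Tk1 and Wisp2 (both r = 0.987), and for Wnt5b Ddx5 (r = 0.988) and Mia3 (r = 0.987). Wnt11 ran with Mindy1 (r = 0.993) and Abcc4 (r = 0.990), an exporter that carries cAMP among other substrates. For Axin2 they were Ikbke (r = 0.979) and Mxra8 (r = 0.977). None of these belongs to the pathway list apart from Wisp2. Among inhibitors, Dkk2 ran with Atp8b1 (r = 0.991) and Slc1a5 (r = 0.990), Dkk3 with Ak1 (r = 0.985) and Cmklr1 (r = 0.984), and Sfrp1 with Dcaf8 and Zc3h6 (both r = 0.981). Sfrp2 ran with Podn (r = 0.996) and Islr (r = 0.995), and Sfrp4 with Ctsb (r = 0.997) and Lbp (r = 0.996). Sfrp2 and Sfrp4 themselves had r = 0.920.

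Exons of 4 of the 10 genes overlap a gene on the other strand in GENCODE vM21. The overlap covers 4.58% of the exon bases of Wnt5a (Gm2670), 8.80% of Wnt11 (the pseudogene Gm8398), 3.80% of Axin2 (Gm11670) and 16.1% of Sfrp2 (Gm26771). The sources used here do not state whether counting used strand, so reads in those stretches cannot be assigned to a strand.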

How the data were processed

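Wnt pathway genes were measured by RNA sequencing in 16 libraries, 4 in each of 4 groups. Builds GRCm38 and mm10 are listed in the submitters' processing notes. The same notes list DESeq2 1.6.3 and featureCounts 1.4.6 as tools. They also list HISAT2 2.0.1 as well as Trim Galore 0.4.1. The authors' deposited values are a normalized signal, each gene's read count over a size factor of its library, per the file headers and the values. Division by the step in each library gave whole reads for 100.0% of 280334 values above 0, within 0.001. The 958 entries without a symbol held 0.0926% of normalized counts, passed through the same filter and are not named.

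All libraries entered a fit of 4 group means with limma 3.58.1 (R 4.3.3, mean-variance trend) on log2(normalized count + 1). Benjamini-Hochberg adjustment ran over 14005 genes, and an adjusted p under 0.05 was called. The fit and the alternatives with edgeR 4.0.16 (quasi-likelihood, TMM) and DESeq2 1.42.0 on the recovered reads were tested on simulated data. There few genes changed, as many up as down, in DPP4_pos isoproterenol only, so scaling where most genes change was not tested. The edgeR and DESeq2 results were read there for the DPP4_pos response only. Other alternatives changed the filter, the pseudocount, the scaling, the groups in the fit, a replicate block and the libraries left out. Levels per kb use merged exons of GENCODE vM21 (GRCm38), which is not stated to be the authors' annotation. Gene positions and promoters are from RefSeq (GRCm38.p6). A gene's span there reaches its outermost transcript, so it can begin ahead of a promoter's start.

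The 10 genes, the pathway list and the marker lists were chosen with earlier results of these data known. Further pathway genes are named from those called with a log2 change of at least 1, at most 4 per group of genes and comparison. A mean of at least 50 normalized counts in a compared group was also required, and not every gene that met this rule is named. The response of a named gene may also be given in the other population. For each tested member the 2 best-correlated genes with a mean of at least 50 are named. Left out of that ranking were the 10 genes themselves, entries without a symbol, symbols that read as dates, and Gm, LOC and Rik genes.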

Additional observations from a re-analysis of the deposited data

Results flagged for a closer look

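Responses to isoproterenol differed between the populations for 8 genes, by limma's test of the difference (DPP4_pos minus DPP4_neg, log2). The differences were -2.07 for Axin2 (adjusted p = 1.52e-08), -1.40 for Wnt11 (adjusted p = 1.25e-08), -1.36 for Wnt5a (adjusted p = 2.08e-09), -1.16 for Dkk3 (adjusted p = 7.57e-12) and -0.23 for Sfrp1 (adjusted p = 0.00316). They were 1.59 for Dkk2 (adjusted p = 1.38e-12), 0.89 for Wnt5b (adjusted p = 0.000792) and 0.68 for Sfrp4 (adjusted p = 2.07e-05).

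In 2 of 40 groups of 4 libraries, 1 library stood far from the other 3, and chance gives about 1 in 20 for normally spread values. That rate does not hold for counts near 0, such as those of Wnt10b, where a single read is enough for a flag. Wnt11 had 706 normalized counts in DPP4_pos isoproterenol library 1, where the others had 806 to 824. Wnt10b had 1.46 in DPP4_pos isoproterenol library 3, a single read, where the others had 0.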

How the results depend on the processing

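Under 27 alternatives, each library left out counted as its own, all 268 total counts of genes or members called stayed within 1.5 times. Counts of so few members could hardly leave that limit, and the split into higher and lower was not held to it. Under total-count scaling the difference of the responses had 2551 genes higher and 6817 lower, in place of 4423 and 4342. Of the gene results, 39 of 45 kept their direction and side of the threshold. The exceptions named in the report are Sfrp4 and Axin2 with isoproterenol, the Sfrp2 difference of responses, and Wnt11, Axin2 and Sfrp1 between populations with isoproterenol. The last, 0.01 for Sfrp1, was -0.31 with quantile scaling, -0.0314 with edgeR, -0.19 with total-count scaling, -0.00245 without DPP4_pos vehicle 1 and DPP4_neg isoproterenol 2, and -0.0168 to 0.0575 with single libraries left out. The causes were not tested. Total-count scaling and the pair left out were chosen after seeing the data. Same-numbered libraries correlated at -0.13 to 0.13 in their deviations from group means, and 4 of 16 correlated best with their own number, so the numbers were not taken as pairs. With the replicate number as a block, calls over all genes were 11612, 9295, 8854, 9393 and 10451, against 11581, 9199, 8765, 9326 and 10418 without it, in DPP4_pos APCs, in DPP4_neg APCs, for their difference, and between populations in vehicle and isoproterenol. Counts of called members were 9, 8, 8, 9 and 6 in both fits. Depth limits Wnt10b, with 1 to 16 reads per group.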

Other observations

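Other pathway genes also separated the populations. In vehicle, Wnt16 averaged 1615 ± 30.3 normalized counts in DPP4_pos and 161 ± 17.6 in DPP4_neg APCs (SD, n = 4 each), a log2 difference of 3.32 ± 0.12 (limma adjusted p = 1.77e-16). Wnt2 was higher in DPP4_pos APCs by 1.06 ± 0.13 (limma adjusted p = 3.52e-07), and Wnt4 was lower, at -1.32 ± 0.19 (limma adjusted p = 2.51e-06). Among 5 other inhibitors tested, 3 were higher and 1 was lower, where 31.6% of all genes were higher and 35.0% lower. Draxin averaged 3812 ± 78.7 in DPP4_pos and 677 ± 51.1 in DPP4_neg vehicle libraries. Notum, a lipase that removes the fatty acid of Wnt proteins, was higher by 2.01 ± 0.15 (limma adjusted p = 1.65e-10). Apcdd1, a membrane-bound Wnt inhibitor, was higher by 1.45 ± 0.06 (limma adjusted p = 1.51e-15). Frzb, another Frizzled-related protein, was lower, at -1.52 ± 0.13 (limma adjusted p = 8.45e-10). The receptors Fzd5 and Lgr6 were lower in DPP4_pos APCs, at -2.92 ± 0.08 and -2.16 ± 0.12 (limma adjusted p = 3.28e-18 and 5.14e-13).

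With isoproterenol, the ligand Wnt9b had 435 reads over the DPP4_neg isoproterenol libraries and 5 over the DPP4_neg vehicle libraries, or 109 ± 6.26 and 0.854 ± 0.691 normalized counts. In DPP4_pos APCs it had 60 reads with isoproterenol and 22 with vehicle. The response in DPP4_pos APCs was lower by 3.82 ± 0.44 on the log2 scale (limma adjusted p = 1.68e-07).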
